A study of Homo sapiens with 9 samples.

Results

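Gangliosides are glycosphingolipids that carry sialic acid, and the 10 genes described here encode the enzymes that build or cap them together with their closest relatives. The genes were ST3GAL1, ST3GAL2, ST3GAL3, ST3GAL4, ST3GAL5, ST3GAL6, ST6GAL1, ST8SIA1, B4GALNT1 and B3GALT4. They were chosen by symbol, with earlier results of these data known but no measured value in the rule, from the 60617 genes with an entry in the deposited RNA-seq tables. All 10 were among the 18532 genes that were tested after a filter on low counts. ST8SIA1 and B3GALT4, with at most 10 counts in a control library, passed it through their treated libraries.

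Ganglioside synthesis begins in the Golgi with lactosylceramide, to which ST3GAL5 adds a sialic acid to give GM3, the parent of most other gangliosides. ST8SIA1 adds another sialic acid to GM3 to give GD3, B4GALNT1 extends GM3 and GD3 to GM2 and GD2, and B3GALT4 adds the galactose that turns these into GM1 and GD1b. The remaining members put sialic acid on terminal galactose, ST3GAL1 and ST3GAL2 on mucin-type O-glycans and on complex gangliosides, and ST3GAL3, ST3GAL4, ST3GAL6 and ST6GAL1 mainly on glycoproteins. GM3 is known as a regulator of growth factor receptors at the plasma membrane, and GD3 and GD2 are known as antigens of neuroectodermal tumours.

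The cells were PC-3, an established human prostate cancer line that grows without androgen, which is a single line and not a set of tumours. All groups were grown for 5 days, the controls (Ctrl, 3 libraries) with vehicle, the decitabine group (Dec, 3 libraries) with 1 µM of decitabine, and the combination group (Dec_Sam, 3 libraries) with 1 µM of decitabine and 200 µM of S-adenosylmethionine (SAM). Decitabine is a nucleoside analogue that blocks DNA methyltransferases, and SAM is the methyl donor of the cell. The sources do not say whether the libraries of a group came from separate cultures, so p-values measure only the spread between these samples, which may be technical.

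Each library held between 21934307 and 22489684 estimated counts. Levels are given as CPM, counts scaled to a common library total with TMM, a factor per library that corrects for differences in RNA composition. In all groups the summed level of 5 epithelial markers was high, between 727 and 956 CPM, while KLK3, the gene of prostate-specific antigen, had no counts in any library. The summed level of 3 leukocyte markers rose from at most 0.1 CPM in the controls to between 1.06 and 1.65 CPM under decitabine and between 0.740 and 1.11 CPM under the combination. For 3 fibroblast markers these ranges were 1.39 to 1.85, 12.2 to 14.0 and 13.7 to 17.5 CPM, and for 3 endothelial markers 9.88 to 10.6, 31.0 to 41.7 and 36.6 to 43.8 CPM. The part of these genes in the results below was not tested. In bulk RNA, fewer cells with a transcript and less of it per cell cannot be told apart.

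Since decitabine blocks the enzymes that methylate cytosine in CG dinucleotides, 3 sequences before transcription starts are shown. They are those of 2 members that were higher in the treated cells, ST3GAL5 and ST8SIA1, and 1 that was lower, ST3GAL3. Each is the 250 bases before a RefSeq transcription start in assembly GRCh38.p14, 5′ to 3′ on the strand of the gene, with every CG in capitals.
ST3GAL5 (chr2:85889035-85889284, minus strand): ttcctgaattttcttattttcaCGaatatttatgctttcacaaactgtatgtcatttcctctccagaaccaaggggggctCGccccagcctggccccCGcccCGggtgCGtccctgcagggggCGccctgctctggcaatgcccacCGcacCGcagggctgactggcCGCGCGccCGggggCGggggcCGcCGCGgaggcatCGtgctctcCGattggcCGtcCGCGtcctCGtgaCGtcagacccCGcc
ST8SIA1 (chr12:22334708-22334957, minus strand): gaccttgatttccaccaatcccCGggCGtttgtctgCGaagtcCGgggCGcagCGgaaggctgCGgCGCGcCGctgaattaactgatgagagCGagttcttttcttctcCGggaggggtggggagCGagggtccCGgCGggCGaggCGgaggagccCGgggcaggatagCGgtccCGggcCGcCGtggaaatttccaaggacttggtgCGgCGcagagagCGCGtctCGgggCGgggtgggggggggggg
ST3GAL3 (chr1:43707286-43707535, plus strand): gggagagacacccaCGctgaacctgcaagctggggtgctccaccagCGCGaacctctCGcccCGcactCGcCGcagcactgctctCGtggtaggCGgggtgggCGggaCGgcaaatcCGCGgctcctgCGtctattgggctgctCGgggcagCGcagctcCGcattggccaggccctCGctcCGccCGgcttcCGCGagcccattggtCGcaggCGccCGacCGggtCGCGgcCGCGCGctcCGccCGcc
The letters CG, which read the same on both strands, occurred 24 times in the ST3GAL5 window, 28 times in that of ST8SIA1 and 33 times in that of ST3GAL3. Of the 35116 windows in the RefSeq table, 93.9% held at least 1 CG, with a median of 11, and 23.7%, 15.9% and 8.15% held at least as many as these 3. A window was at hand for 6 of the 10 genes. ST3GAL5 had 5 of them, with 2, 2, 24, 29 and 38 CG, ST3GAL4 had 3 with 6, 8 and 42, ST3GAL6 had 4 with 0, 6, 22 and 30, and ST6GAL1 had 1 with 22. Windows rich in CG thus stood before members that were higher and before members that were lower after treatment. The counts are per gene and do not say which start was used, and methylation at these windows was not analysed here.

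With decitabine, 3 of the 10 genes were higher than in the controls, ST3GAL5, ST8SIA1 and B3GALT4, and 4 were lower, ST3GAL1, ST3GAL3, ST3GAL4 and ST6GAL1 (edgeR's quasi-likelihood test with Benjamini-Hochberg adjustment over all genes tested, threshold 0.05). Of all genes tested, 36.3% were higher and 32.5% were lower in this comparison, so shares of this size were common across the transcriptome. The same 3 genes were higher with the combination, where ST3GAL6 joined the 4 that were lower, against 35.9% and 31.3% of all genes. In either direction, 7 and 8 members were called, beside 68.8% and 67.2% of all genes. Of the 3 higher members, ST8SIA1 and B3GALT4 passed the filter through their treated libraries and could hardly have been called lower. The comparisons of decitabine and of the combination with the controls share the 3 controls. The median log2 fold change of the members was -0.09 with decitabine and -0.25 with the combination, beside 0.03 and 0.05 over all genes tested. The combination was compared with decitabine directly as well. There, 0 members were higher and 2 were lower, ST3GAL1 and ST3GAL3, while 7.67% and 8.02% of all genes were called (15.7% in either direction), and 3 members had an unadjusted p under the threshold. Scaling by library size alone moved the median of all genes to 0.28 and 0.27 against the controls, raised the share of higher genes among the calls from 52.7% to 70.3% and from 53.4% to 69.3%, and gave 4 higher and 4 lower members in each.

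**Figure D1:**
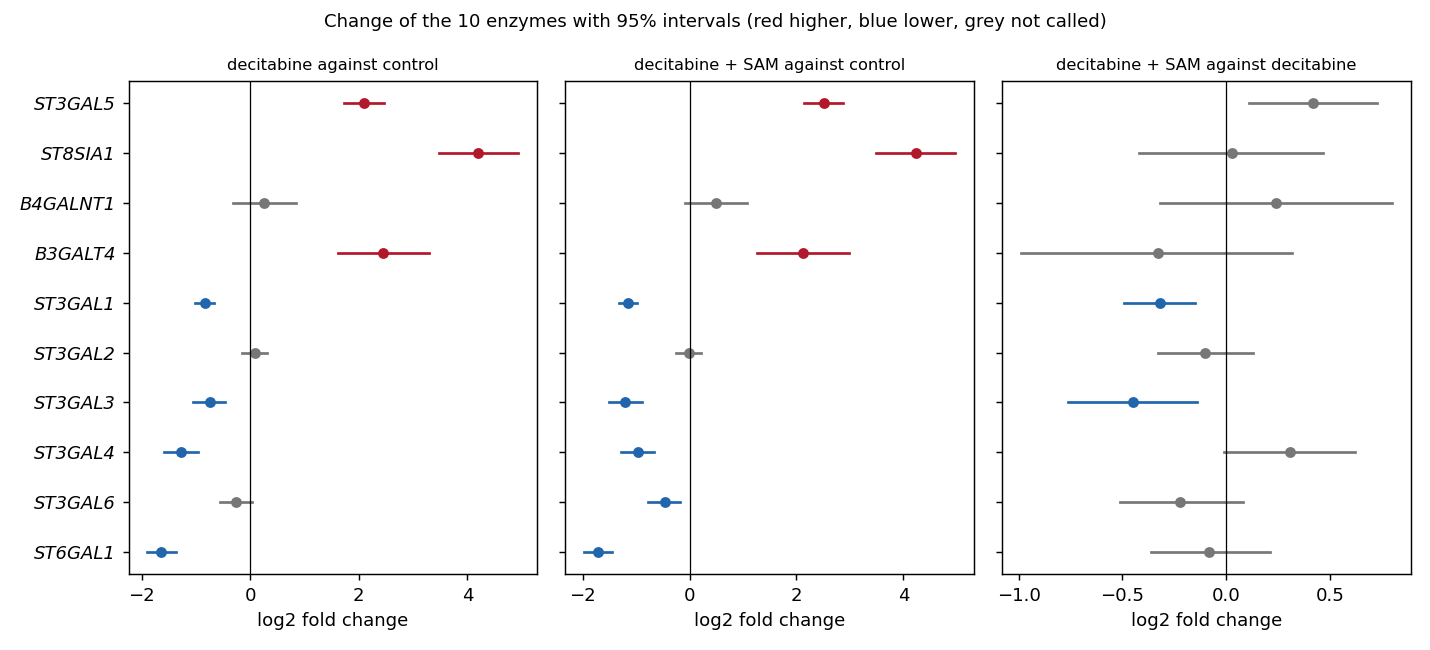
Log2 fold change of the 10 enzymes in 3 comparisons, with points for the estimates of edgeR and lines for their 95% intervals. Red marks genes that were higher, blue genes that were lower and grey genes that were not called. ST3GAL5, ST8SIA1 and B3GALT4 lie to the right of 0 against the controls, with intervals that do not touch it, and the right panel, on a narrower axis, has only ST3GAL1 and ST3GAL3 in colour. The intervals are not adjusted for the number of genes, so that of ST3GAL5 in the right panel leaves out 0 although the gene was not called.

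ST3GAL5 (ENSG00000115525, chromosome 2, 85837120 to 85905199, minus strand), the GM3 synthase, had 43, 43 and 69 estimated counts in the control libraries. With decitabine it had 242, 283 and 253 counts, and with the combination 308, 319 and 385. In CPM the controls stood at 2.14, 2.15 and 3.41, the decitabine libraries at 10.2, 11.9 and 10.7 and the combination libraries at 13.4, 14.0 and 16.4. The ranges of the 3 groups did not overlap. All ranges of treated libraries lay apart from those of the controls for 7 members with decitabine and 8 with the combination, as they did for 72.9% and 71.6% of all genes tested, and between the treatments for 4 members and 34.0% of all genes. For the log2 fold change, the 95% interval of decitabine ran from 1.72 to 2.46, and that of the combination from 2.14 to 2.87. Between the treatments the interval ran from 0.11 to 0.73, and the difference was not called (0.42, edgeR adjusted p = 0.066). It was called with voom and limma, without a filter on low counts, with only the 6 libraries compared and without control replicate 3. The replicate number as a block gave a call as well. The adjusted p lay between 0.023 and 0.046 in these. No other annotated gene shares exon bases with ST3GAL5.

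ST8SIA1 (ENSG00000111728, chromosome 12, 22063773 to 22437041, minus strand), the GD3 synthase, uses the product of ST3GAL5. It had 2 counts in each control library, 38, 49 and 50 counts with decitabine and 42, 46 and 48 counts with the combination. It was therefore barely detected in the controls and had a low but measurable level in every treated library, 1.93 ± 0.281 CPM (SD, n = 3) with decitabine and 1.97 ± 0.119 CPM under the combination. The ratio of scaled counts was 19.4 with decitabine (95% interval 8.70 to 53.9) and 19.8 with the combination (8.86 to 54.9), which covers counting error only. The fitted log2 fold changes were 4.20 (standard error 0.34, edgeR adjusted p = 9.8e-08) and 4.23 (0.34, adjusted p = 9.7e-08). The treatments differed by 0.03, with an interval from -0.42 to 0.47, and their ranges overlapped.

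B4GALNT1 (ENSG00000135454, chromosome 12, 57623409 to 57633239, minus strand), the GM2 and GD2 synthase, was not called in any comparison. Its levels were 4.17, 6.05 and 8.15 CPM in control cells, 5.83, 7.34 and 8.77 CPM under decitabine and 6.40, 8.27 and 11.3 CPM under the combination. The ranges overlapped in all 3 comparisons, and the spread within each group was wide beside the difference of the means. The log2 fold change was 0.26 with decitabine (interval -0.32 to 0.84, edgeR adjusted p = 0.41) and 0.50 with the combination (-0.08 to 1.07, adjusted p = 0.11). The latter was called without control replicate 3 (0.75, adjusted p = 0.026), without combination replicate 1 (0.66, adjusted p = 0.041), without a filter on low counts (0.47, adjusted p = 0.0091) and when only library size was scaled for (0.72, adjusted p = 0.037). It was also called with the replicate number as a block (0.51, adjusted p = 0.0029). Of its exon bases, 27.1% are shared with SLC26A10P on the opposite strand, which had a mean of at most 1.7 counts per group. Whether the counting used strand is not given in the sources used here.

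B3GALT4 (ENSG00000235863, chromosome 6, 33277123 to 33284832, plus strand), the galactosyltransferase that makes GM1 and GD1b, was also scarce in the controls, with 10, 5 and 4 counts. It had 34, 33 and 57 counts with decitabine and 30, 24 and 42 with the combination, so every treated library was above every control. The log2 fold change was 2.45 with decitabine (standard error 0.39, edgeR adjusted p = 6.5e-05) and 2.12 with the combination (0.40, adjusted p = 0.00031). Between the treatments it was -0.33, with an interval from -0.99 to 0.32, and the ranges overlapped.

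**Figure D2:**
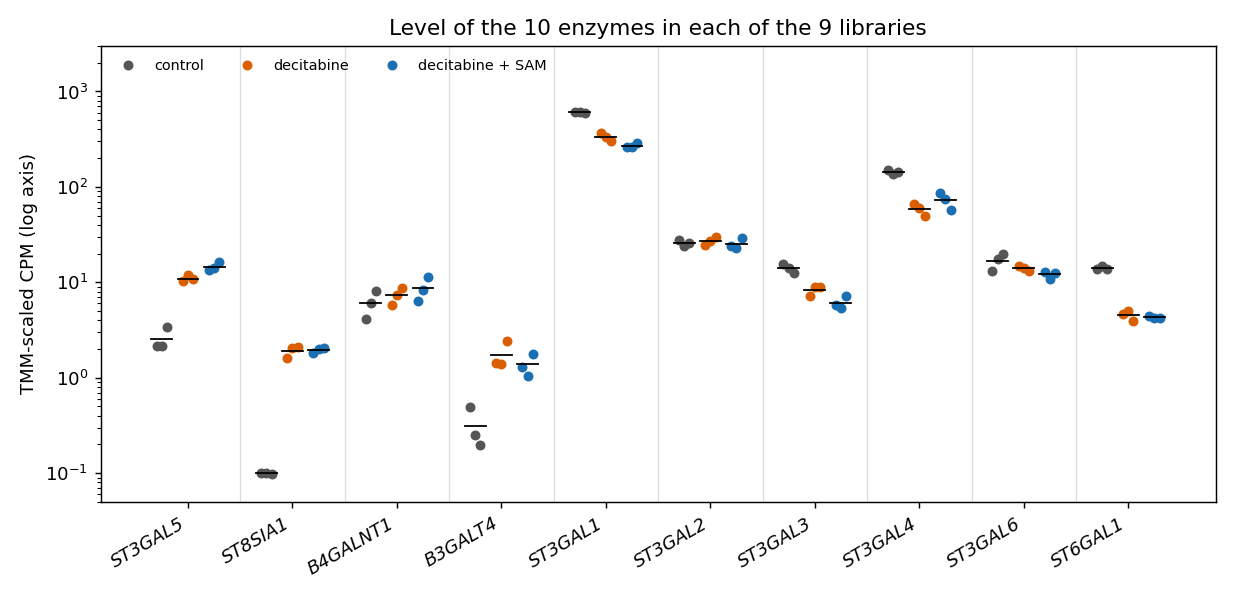
Level of the 10 enzymes in TMM-scaled CPM on a log axis, with 1 point per library and a line at the mean of each group of 3. Grey points are controls, orange points decitabine and blue points decitabine with SAM. ST3GAL5, ST8SIA1 and B3GALT4 have all treated points above all control points, and ST3GAL1, ST3GAL3, ST3GAL4 and ST6GAL1 have them below.

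Among the enzymes that act on terminal galactose, ST3GAL1 (ENSG00000008513, chromosome 8, 133454848 to 133571926, minus strand), which sialylates mucin-type O-glycans, had the highest mean level per kilobase of the 10 in every group. It had 609, 602 and 596 CPM in control cells, 371, 334 and 305 CPM under decitabine and 263, 261 and 287 CPM under the combination. The 3 groups did not overlap, and the level fell with decitabine by 0.84 on the log2 scale (standard error 0.08, edgeR adjusted p = 4.1e-07) and with the combination by 1.16 (0.08, adjusted p = 1.9e-08). The combination was lower than decitabine, with a log2 fold change of -0.32 (0.08, adjusted p = 0.017) and an interval from -0.49 to -0.15. This call was lost without decitabine replicate 1 (-0.24, adjusted p = 0.072), and also when decitabine replicate 2 (-0.32, 0.067), combination replicate 1 (-0.30, 0.056) or combination replicate 2 (-0.29, 0.096) was left out.

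ST3GAL2 (ENSG00000157350, chromosome 16, 70375977 to 70439237, minus strand), which sialylates complex gangliosides, had close values in all groups. It had 27.8, 23.9 and 25.5 CPM in control cells, 24.6, 26.9 and 29.8 CPM under decitabine and 23.8, 22.9 and 29.3 CPM under the combination. The ranges overlapped throughout. For the log2 fold change, the interval of decitabine ran from -0.16 to 0.31, that of the combination from -0.25 to 0.21 and that between them from -0.33 to 0.13. When only library size was scaled for, its change under decitabine was called (0.32, edgeR adjusted p = 0.023).

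The enzymes that mainly serve glycoproteins were lower after treatment or not called. ST6GAL1 (ENSG00000073849, chromosome 3, 186930325 to 187078553, plus strand), which places sialic acid in another linkage on N-glycans, had the largest fall of the 10. It went from 14.0, 14.7 and 13.7 CPM in the controls to 4.65, 4.98 and 3.98 CPM under decitabine and 4.40, 4.22 and 4.26 CPM under the combination. This was 3.11-fold lower with decitabine (log2 fold change -1.64, standard error 0.12, edgeR adjusted p = 5.1e-08) and 3.28-fold lower with the combination (-1.72, 0.13, adjusted p = 3.5e-08). The treated groups overlapped each other and differed by -0.08 (interval -0.36 to 0.21).

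ST3GAL4 (ENSG00000110080, chromosome 11, 126355640 to 126440344, plus strand), which takes part in sialyl Lewis synthesis, came next to ST3GAL1 in level per kilobase. It had 152, 136 and 142 CPM in control cells, 67.0, 60.8 and 49.5 CPM under decitabine and 86.2, 75.5 and 57.8 CPM under the combination. Every treated library was below every control, and the level fell by 1.28 on the log2 scale with decitabine (standard error 0.14, edgeR adjusted p = 1.4e-05) and by 0.97 with the combination (0.14, adjusted p = 0.00011). The treated groups overlapped because of combination replicate 3, and their difference of 0.31 was not called (adjusted p = 0.17). Without that library it was called (0.45, adjusted p = 0.011), as it was without a filter on low counts (0.32, adjusted p = 0.0045). The replicate number as a block also gave a call (0.30, adjusted p = 0.032).

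ST3GAL3 (ENSG00000126091, chromosome 1, 43705824 to 43931165, plus strand), which sialylates the galactose ends of N-glycans, had 15.5, 14.0 and 12.6 CPM in control cells, 7.19, 8.86 and 8.94 CPM under decitabine and 5.75, 5.37 and 7.11 CPM under the combination. The 3 groups did not overlap, although the nearest libraries of the treated groups, at 7.19 and 7.11 CPM, were close. The level fell by 0.75 on the log2 scale with decitabine (standard error 0.14, edgeR adjusted p = 0.00022) and by 1.21 with the combination (0.14, adjusted p = 3.7e-06). Between the treatments it was -0.45 (0.14, adjusted p = 0.047), just inside the threshold, and this call was lost with voom and limma (adjusted p = 0.06), with only the 6 libraries compared (0.075) and in 7 of 9 fits that left out 1 library, with adjusted p up to 0.2. Of these 9 fits, those without decitabine replicate 1 and combination replicate 3 kept it. The exons of ST3GAL3 share 1951 bases with ENSG00000284989 on the same strand, which had a mean of 5.0 counts in the controls and 0.0 in both treated groups.

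ST3GAL6 (ENSG00000064225, chromosome 3, 98732236 to 98821201, plus strand), a further enzyme of sialyl Lewis synthesis, had the widest spread of the 6 ST3GAL genes in the controls relative to its level, after ST3GAL5. It had 13.1, 17.6 and 19.7 CPM in control cells, 14.8, 14.3 and 13.04 CPM under decitabine and 12.8, 10.9 and 12.5 CPM under the combination. Control replicate 1 lay among the decitabine libraries, and the change with decitabine was not called (-0.26, edgeR adjusted p = 0.1). Without that library it was (-0.42, adjusted p = 0.0066), as it was without a filter on low counts (-0.30, adjusted p = 0.036). With the combination ST3GAL6 fell by 0.47 (standard error 0.14, adjusted p = 0.0068), a call lost when only library size was scaled for (-0.25, adjusted p = 0.12). Its exons share 3.7% of their bases with DCBLD2 on the opposite strand, with mean counts of 9700.3, 7016.0 and 6449.3 in the control, decitabine and combination groups, and the part of those reads in its values was not tested.

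Levels of different genes were compared per length, as CPM per kilobase of the longest annotated protein-coding transcript. In the controls ST3GAL1 was at 86.6 and ST3GAL4 at 66.1 CPM per kilobase, followed at a distance by ST3GAL6 (4.70), ST3GAL3 (4.28), ST6GAL1 (3.07), ST3GAL2 (2.90), B4GALNT1 (1.14), ST3GAL5 (0.587), B3GALT4 (0.185) and ST8SIA1 (0.0102). The neighbours ST3GAL6 and ST3GAL3, ST6GAL1 and ST3GAL2, and B4GALNT1 and ST3GAL5 overlapped between libraries in this order. With decitabine ST3GAL5 stood at 2.51 CPM per kilobase, level with ST3GAL3 at 2.54, and ST6GAL1 had dropped to 0.985, within the range of B3GALT4. With the combination ST3GAL1 at 38.9 and ST3GAL4 at 33.7 overlapped between libraries, and ST3GAL5 stood at 3.35, and its range overlapped those of ST3GAL6 at 3.39 and ST3GAL2 at 2.86. The rank of ST3GAL5 among the 10 was thus 8, 6 and 4 in the control, decitabine and combination groups. With the length of all annotated exons merged in place of the longest transcript, it was 8, 7 and 6. With that length ST3GAL1 at 30.8 and ST3GAL4 at 12.3 did not overlap in the combination group.

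The transcript for the enzyme of lactosylceramide was a small share of the ST3GAL family. ST3GAL5 made up 0.288%, 0.305% and 0.475% of the summed per-length level of the 6 ST3GAL genes in the controls. It made up 2.45%, 3.09% and 3.11% with decitabine and 3.46%, 3.88% and 4.66% with the combination, so the groups did not overlap. The means differed from the controls by 2.53 and 3.64 percentage points and between the treatments by 1.12 points, each with p = 0.1 in an exact two-sided permutation test of 3 against 3 libraries, the smallest value that this design allows. With merged exon lengths the differences from the controls were smaller, 1.09 and 1.68 points. ST3GAL1 held 52.5% ± 1.03 (SD, n = 3) of the sum in control cells, 55.2% ± 0.834 under decitabine and 46.4% ± 4.36 under the combination. For ST3GAL4 the shares were 40.0% ± 1.28, 31.0% ± 1.77 and 40.0% ± 6.16. The shares of both genes rest on the length of the longest transcript. The share of ST3GAL5 also reflects the lower levels of ST3GAL1 and ST3GAL4 in the treated groups. The level of ST3GAL5 itself was 4.27-fold higher with decitabine and 5.69-fold higher with the combination than in the controls.

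**Figure D3:**
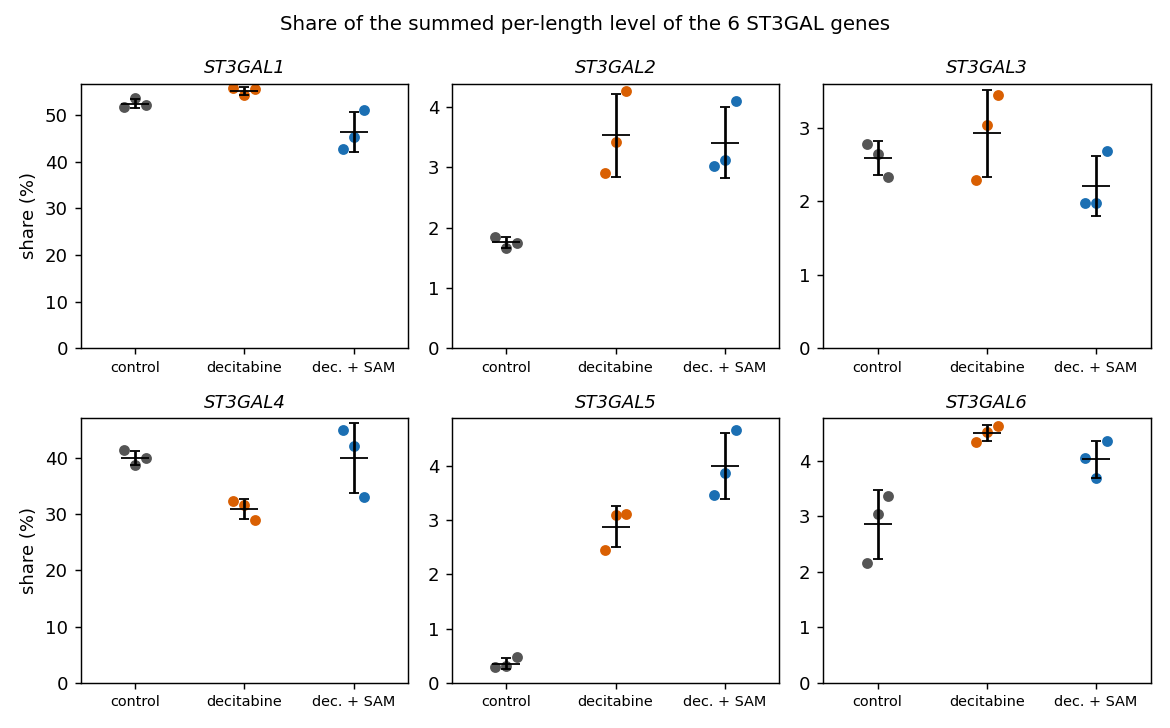
Share of each ST3GAL gene in the summed level per kilobase of the 6 genes, in percent, with 1 point per library, a line at the mean and bars of 1 SD (n = 3). The vertical axes start at 0 and differ between panels. ST3GAL5 stays under 0.5% in the controls and lies between 2.45% and 4.66% in the treated libraries, while ST3GAL1 and ST3GAL4 hold most of the sum in every group.

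The precursor side of the pathway was examined with gene lists. Of 5 genes for lactosylceramide supply, 2 were higher with decitabine and 3 with the combination, 0 were lower in either, and the median log2 fold changes were 0.15 and 0.23, beside 0.03 and 0.05 over all genes, of which 36.3% and 35.9% were higher. When only library size was scaled for, 4 and 5 of the 5 were higher, with medians of 0.40 and 0.45. UGCG, the glucosylceramide synthase, had 23.6 ± 1.28 CPM (SD, n = 3) in the controls and rose to 52.6 ± 10.7 CPM with decitabine (log2 fold change 1.16, edgeR adjusted p = 0.00011) and 45.1 ± 8.98 CPM under the combination (0.94, adjusted p = 0.00054). SLC35A2, the UDP-galactose transporter of the Golgi, rose by 0.47 and 0.34, the latter not called without control replicate 3 (adjusted p = 0.072) or combination replicate 3 (0.061). Of 5 tested genes of the other branches, 1 was higher with each treatment and 0 were lower. Among all genes, 68.8% and 67.2% were called in either direction. When only library size was scaled for, 3 of the 5 were higher with each treatment. For the combination, 2 were higher with voom and limma, with size factors or the test of DESeq2, and with only the 6 libraries compared. The 1 gene called in the main fit was A4GALT, which competes for lactosylceramide by turning it into the globoside Gb3. It had 1.94 ± 0.370 CPM in control cells, 7.27 ± 1.18 CPM under decitabine and 9.69 ± 0.871 CPM under the combination, log2 fold changes of 1.91 (adjusted p = 4.4e-07) and 2.32 (adjusted p = 5.8e-08).

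Further upstream, the 13 tested genes of ceramide synthesis changed in both directions, 6 higher and 4 lower with decitabine and 6 higher and 3 lower with the combination, with medians of 0.11 and 0.12, beside 36.3% higher and 32.5% lower and 35.9% higher and 31.3% lower among all genes. When only library size was scaled for, 8 were higher and 1 was lower with decitabine and 7 were higher and 2 were lower with the combination, with medians of 0.35 and 0.34. Among the 6 genes higher in the main fit, CERS1 and DEGS2 had at most 9 counts in a control library. They passed the filter on low counts through their treated libraries and could hardly have been called lower. With only the 6 libraries compared, 5 of 12 tested genes were higher with decitabine and 6 of 13 with the combination. SPTSSB, a small subunit of serine palmitoyltransferase, rose from 21.1 ± 3.12 CPM to 175 ± 16.0 CPM with decitabine (log2 fold change 3.06, edgeR adjusted p = 3.1e-11) and 168 ± 10.8 CPM under the combination (2.99, adjusted p = 3.5e-11). SPTLC3, a catalytic subunit of the same enzyme, rose by 1.12 and 1.41. The ceramide synthases CERS6 and CERS2 were lower, with log2 fold changes of -0.72 and -0.58 for CERS6 and -0.29 and -0.26 for CERS2, and the calls of CERS2 were lost when only library size was scaled for. Of the other ceramide synthases tested, CERS1 (2.58 and 2.39) and CERS5 (0.38 and 0.24) were higher, and CERS4 was not called. CERS1, CERS4, CERS5 and DEGS2 fell outside the rule for named genes and were added after their values were seen. SPTLC2, another catalytic subunit, had 93.2 ± 2.41 CPM in control cells, 96.6 ± 7.51 CPM under decitabine and 60.1 ± 9.35 CPM under the combination, and it was lower in the combination than in the decitabine group (-0.68, adjusted p = 0.00093).

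Sialic acid itself reaches the sialyltransferases as CMP-sialic acid. Of the 5 genes for its supply, 3 were lower with each treatment and 0 were higher, with a median of -0.19 in both. Among all genes, 32.5% were lower and 36.3% higher with decitabine, and 31.3% and 35.9% with the combination. With scaling by library size alone, 1 and 0 of the 5 were lower and the medians were 0.06 and 0.03. CMAS, which activates sialic acid, had 70.2 ± 2.37 CPM in control cells, 47.5 ± 1.84 CPM with decitabine (-0.57, edgeR adjusted p = 7.8e-06) and 55.5 ± 3.28 CPM under the combination (-0.34, adjusted p = 0.00073). It was higher in the combination than in the decitabine group (0.23, adjusted p = 0.048), a call kept, among the 9 fits without 1 library, only when decitabine replicate 3 or combination replicate 3 was left out, and with adjusted p up to 0.2 in the other 7. It was also lost with size factors of DESeq2 (adjusted p = 0.057), when only library size was scaled for (0.071), without a filter on low counts (0.071) and with only the 6 libraries compared (0.083). GNE, the first enzyme of sialic acid synthesis, fell by 0.21 and 0.20, but its change was 0.04 and 0.03 when only library size was scaled for. Its calls were also lost without control replicate 1 (adjusted p = 0.074 and 0.1), on omission of decitabine replicate 3 (0.079) and of combination replicate 1 (0.056).

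Of 12 other sialyltransferases, 7 were tested, since ST6GALNAC3, ST8SIA2, ST8SIA3, ST8SIA5 and ST8SIA6 had too few counts. With each treatment 5 were higher and 1 was lower, with medians of 1.03 and 1.06. The sets of 5 differed. ST6GALNAC2 was higher than in the controls only with decitabine (0.45, edgeR adjusted p = 0.047) and ST6GALNAC4 only with the combination (0.33, adjusted p = 0.012). These calls were lost in 7 and in 2 of the 9 fits without 1 library, and that of ST6GALNAC2 also with voom and limma (adjusted p = 0.086). Among all genes, 36.3% were higher and 32.5% lower with decitabine, and 35.9% and 31.3% with the combination. When only library size was scaled for, 5 were higher and 0 were lower with each, with medians of 1.28 and 1.28. ST6GALNAC1, which makes the sialyl-Tn antigen, rose from 0.696 ± 0.203 CPM to 5.87 ± 1.14 CPM with decitabine (log2 fold change 3.07, edgeR adjusted p = 7.3e-08) and 5.22 ± 0.655 CPM under the combination (2.90, adjusted p = 1.5e-07). ST6GALNAC5, which makes an alpha-series ganglioside, had 0 counts in the controls, 89 in the 3 decitabine libraries and 54 in the 3 combination libraries, at least 25.2-fold and 15.7-fold higher against a floor of 3 counts over the control group. It passed the filter on low counts through the treated libraries, so against the controls it could only be called higher. It fell outside the rule for named genes and was added after its values were seen. ST8SIA4, a polysialyltransferase, rose by 1.34 and 1.06. ST6GAL2, a relative of ST6GAL1, went the opposite way from it, with 5.56 ± 0.909 CPM in control cells, 11.4 ± 0.345 CPM under decitabine and 18.4 ± 1.96 CPM under the combination, and it was higher in the combination than in the decitabine group (0.69, adjusted p = 0.003). ST6GALNAC6 fell by 0.40 and 0.25, calls that were lost when only library size was scaled for, and the latter also without control replicate 2 (adjusted p = 0.078), control replicate 3 (0.057) or combination replicate 3 (0.079). Between the treatments ST6GALNAC4 was higher in the combination (0.34, adjusted p = 0.043) and ST6GALNAC2 was lower (-0.65, adjusted p = 0.032), calls that were lost in 6 and in 5 of the 9 fits without 1 library. ST6GALNAC4 was kept without control replicates 1 and 3 and decitabine replicate 3, and ST6GALNAC2 without control replicates 1 and 3, decitabine replicate 3 and combination replicate 1. The call of ST6GALNAC4 was also lost when only library size was scaled for (adjusted p = 0.066), and that of ST6GALNAC2 with voom and limma (0.052) and with only the 6 libraries compared (0.067).

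**Figure D4:**
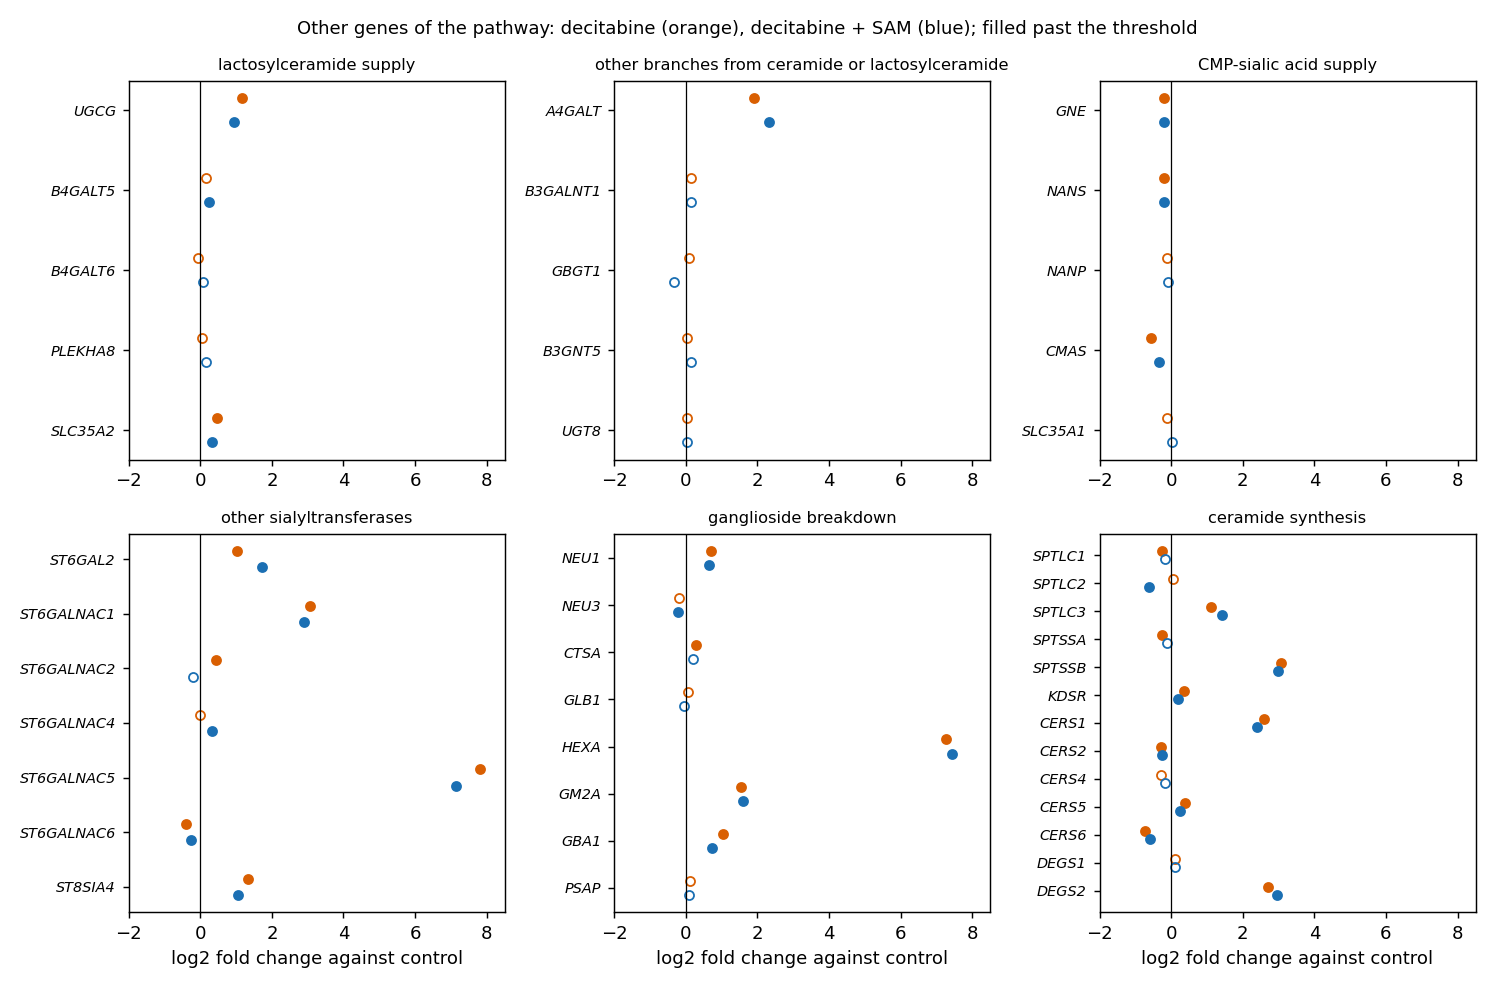
Log2 fold change against the controls of tested genes in 6 lists around ganglioside synthesis, with decitabine in orange and decitabine with SAM in blue, filled where the adjusted p was under 0.05. Most changes lie within 1 of 0, and UGCG, A4GALT, ST6GALNAC1, GM2A and SPTSSB stand to the right of it, while the CMP-sialic acid genes lie close to 0. The values of HEXA and ST6GALNAC5, with 1 and 0 counts in the controls, depend on the prior count of the fit and have no fixed size.

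Of the 9 tested genes of ganglioside breakdown, 6 were higher and 0 were lower with decitabine, and 4 were higher and 1 was lower with the combination, with medians of 0.30 and 0.19, beside 36.3% higher and 32.5% lower among all genes with decitabine and 35.9% and 31.3% under the combination. When only library size was scaled for, 8 were higher and 0 were lower in both, with medians of 0.55 and 0.42. GM2A, the activator protein that presents GM2 to its hydrolase, had 129 ± 10.5 CPM in the controls and rose to 374 ± 12.1 CPM with decitabine (log2 fold change 1.54, edgeR adjusted p = 6.9e-10) and 388 ± 13.7 CPM under the combination (1.59, adjusted p = 5.4e-10). HEXA, the alpha subunit of that hydrolase, had 1 count in the 3 controls together, 242 counts with decitabine and 268 with the combination, ratios of 206 (95% counting interval 36.6 to 8166) and 234 (41.6 to 9275). HEXA passed the filter on low counts through its treated libraries and could hardly have been called lower. Genes that share exon bases with HEXA had a mean of at most 0.7 counts in each group. NEU3, the plasma membrane sialidase, had 35.3 ± 2.45 CPM in the controls and 30.3 ± 2.96 CPM under the combination (-0.22, adjusted p = 0.044), a change of 0.0 when only library size was scaled for, and not called in 4 of the 9 fits without 1 library, those without control replicates 2 and 3, decitabine replicate 2 and combination replicate 1 (adjusted p 0.056 to 0.15). That call was also lost with size factors of DESeq2 (adjusted p = 0.054), with the test of DESeq2 (0.067), with a filter at 10 counts on average (0.059) and with only the 6 libraries compared (0.07).

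Over the 9 libraries, the genes whose log2 CPM followed that of ST3GAL5 most closely, among the 11969 genes whose mean reached 5 CPM, were SGPP1, PAM, TLE1, SP9 and GABRQ, with Pearson's r of 0.995, 0.995, 0.994, 0.993 and 0.993. As many as 1601 genes had r above 0.9. All these points share the same 3 groups and libraries. SGPP1, a sphingosine phosphate phosphatase, had means of 42.2, 66.6 and 73.2 CPM in the control, decitabine and combination groups. GABRQ, a subunit of GABA receptors, had means of 6.80, 19.7 and 23.4 CPM in the same order. Among the members, r with ST3GAL5 was highest for ST8SIA1 (0.97) and lowest for ST3GAL1 and ST6GAL1 (-0.97 each), which describes the order of these 9 libraries only.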

How the data were processed

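RNA-seq of PC-3 cells gave 9 libraries, 3 per group, which were grouped by the sample labels, with doses from the study's methods. Per the labels and the submitters' processing notes, reads were trimmed with Trim Galore 0.6.4 and quantified with kallisto 0.4.6 on GRCh38, and edgeR 3.17 was used. The deposited files used here hold estimated counts per Ensembl gene, made by the authors without normalization. The deposited log2 CPM files were not used. The annotation release is not given in the sources used here. Of 60617 identifiers, 60357 were matched to GENCODE release 44, from which positions and lengths were taken. Promoter windows came from RefSeq.

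Counts were rounded, filtered with filterByExpr, scaled with TMM and fitted with edgeR 4.0.16 in R 4.3.3 (robust quasi-likelihood, 1 mean per group over all 9 libraries). P-values were adjusted over 18532 genes by the Benjamini-Hochberg method at a threshold of 0.05. The common dispersion was 0.00977. Intervals for counts, and the floor of 3 counts, cover counting error only. The alternatives were 2 other scalings (size factors of DESeq2, or library size only), 2 other tests (DESeq2 1.42.0, and limma 3.58.1 with voom), 2 other filters (none, or 10 counts on average), a fit to just the 6 libraries of a comparison, a replicate block, a required log2 fold change above 1, other gene lengths, and the omission of each library in turn. Where this left 2 libraries in a group, the spread was estimated over all groups. The fit was tested on simulated counts in which far fewer genes changed than were called here, evenly in both directions. That test therefore does not cover the choice of scaling. Pairs of libraries within a group differed by 5.86 to 23.5 chi-square units per degree of freedom, so none was a copy.

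The members and gene lists were chosen with earlier results of these data known. All 10 members were named. From each list, at most 2 genes per direction and treatment with the largest change were named, if their mean reached 50 counts in some group, and every gene called between the treatments. A few single-gene results are left out of the text and plots. Genes most like ST3GAL5 were ranked by Pearson's r of log2 CPM with a prior count of 2. Tables and plots were made in Python 3.11.15 with scipy 1.17.1, numpy 2.4.6, pandas 2.3.3 and matplotlib 3.10.9.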

Additional observations from a re-analysis of the deposited data

How the results depend on the processing

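Against the controls, the 3 higher members and the 4 or 5 lower ones were called under nearly all alternatives. With a log2 fold change above 1 required, 2 members were lower with decitabine and 3 with the combination, and 0 were lower between the treatments. With library size alone, 2 of the 8 lower pathway list genes were called in each comparison with the controls, and 1 pathway list gene was higher between the treatments. Leaving out 1 library gave 5 to 9 lower list genes for the combination against the controls. Between the treatments, the count of higher members was 1 with voom and limma, 2 without a filter, 2 with the replicate block and 1 with the 6 libraries compared, and 0 to 1 without 1 library. The count of lower members was 1 with voom and limma and 1 with the 6 libraries, and 0 to 2 without 1 library. Higher list genes then numbered 1 to 4 and lower ones 1 to 3. The difference of ST3GAL5 between the treatments was 0.41 with voom and limma (adjusted p = 0.042), 0.42 without a filter (0.023), 0.41 with the block (0.039), 0.41 with the 6 libraries (0.046), and 0.33 to 0.48 without 1 library (0.033 to 0.17). Its share of the ST3GAL sum differed from the controls by 1.09 and 1.68 points with merged exon lengths, and by 2.10 points with decitabine without length correction. Changes of sign concerned small values. Without 1 library, ST3GAL2 ranged from 0.0 to 0.13 under decitabine and from -0.14 to 0.04 under the combination, where it was at 0.20 with library size alone. With library size alone GNE was at 0.04 and 0.03 and NEU3 at 0.0. ST8SIA1 between the treatments ranged from -0.09 to 0.10 without 1 library. Same-numbered libraries of 2 groups correlated between -0.017 and 0.018, -0.004 and 0.069, and 0.036 and 0.233 in their deviations. The last range is that of decitabine and combination libraries. There, replicates 1 and 3 correlated at 0.233 and 0.229 with the same number and at -0.22 with each other's number. The numbers thus carried some shared deviation between the treated groups, and the main fit had no term for it. With the block ST3GAL4 was called between the treatments (0.30, adjusted p = 0.032) and B4GALNT1 with the combination (0.51, 0.0029), and over all genes 1766 were higher and 1890 lower between the treatments, against 1421 and 1487 without it. Omitting combination replicate 2 left 381 and 480 of these, and omitting decitabine replicate 2 left 408 and 596, and the cause was not tested. Depth limits ST8SIA1 and B3GALT4, with at most 10 counts in a control library.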

Other observations

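Genes annotated as antisense to the members were looked at after the values of the members were seen. ST3GAL5-AS1 (chromosome 2, 85889151 to 85891136, plus strand) starts within the CG-rich window printed for ST3GAL5 and runs away from it. It had 0, 0 and 1 counts in the controls, 5, 12 and 12 counts with decitabine and 7, 6 and 6 counts with the combination, too few to be among the genes tested. ST3GAL6-AS1 (chromosome 3, 98706236 to 98732757, minus strand), which overlaps the start of ST3GAL6, had 70, 84 and 82 counts in the controls, 125, 150 and 153 with decitabine and 135, 144 and 176 with the combination. It rose by 0.62 on the log2 scale with decitabine (standard error 0.16, edgeR adjusted p = 0.0026) and by 0.75 with the combination (0.16, adjusted p = 0.00068), while ST3GAL6 was at -0.26 and -0.47. ST3GAL3-AS1 had 1 count in the 9 libraries together. Reads of ST3GAL6-AS1 and of ST3GAL6 in their shared exon bases cannot be told apart without strand.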
